A study of Homo sapiens with 16 samples.

Results

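The genes described here are 37 human genes of homologous recombination and the Fanconi anemia pathway, and their transcripts were followed across 4 groups of cells of the prostate cancer line LNCaP. They were taken from a list of symbols matched to Ensembl identifiers, and all 37 were found among the 62754 genes counted and were kept among the 18549 genes with enough reads to test. LNCaP cells grow from a metastasis of a prostate adenocarcinoma and respond to androgen through the androgen receptor. The groups were p53 KO cells with GCN2iB, p53 KO cells with vehicle, WT cells with GCN2iB and WT cells with vehicle, with 4 libraries in each. The p53 KO cells had been made from LNCaP with CRISPR, and the labels do not say whether they are 1 clone or a pool. GCN2iB, an inhibitor of the kinase GCN2, was given at 5 µM for 48 h and the vehicle was DMSO, with 350000 cells plated per well and 1 day of attachment before treatment in every group. Total RNA was sequenced in paired ends. The labels do not say that the 4 libraries of a group came from separate cultures, so each p-value measures only the spread between these libraries. The comparisons ask how the repair transcripts responded to GCN2 inhibition, and whether cells without p53 differed from WT cells under either treatment.

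Homologous recombination repairs breaks that run through both DNA strands by copying the sister chromatid, and it works mainly after DNA has been replicated. Nucleases of the end resection step lay bare a strand, BRCA1, PALB2 and BRCA2 load a recombinase filament on it, and nucleases and helicases later separate the joined molecules. The Fanconi anemia pathway handles crosslinks between the strands: a core complex and the ubiquitin-conjugating enzyme UBE2T attach ubiquitin to the pair FANCD2 and FANCI, which then direct the cut and the repair by recombination. Many of these genes are transcribed most in cells that are replicating DNA. Loss of BRCA2, BRCA1 or PALB2 function in prostate tumours is known for sensitivity to PARP inhibitors.

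All 10 luminal prostate markers were detected in every library, KLK3 at 1278 to 1885 CPM (counts scaled to the library total after TMM normalisation), whereas KRT5, TP63 and PTPRC, which mark basal cells and leukocytes, were at 0 in 13, 14 and 13 of the 16 libraries. Other basal markers were low but detected in every library: KRT14 at 2.05 to 4.26 CPM, KRT15 at 0.0589 to 0.669 CPM and KRT6A at 0.161 to 3.98 CPM. So were the stromal markers VIM at 3.66 to 9.29 CPM, COL1A1 at 11.3 to 23.8 CPM, COL1A2 and DCN. CD68 and PECAM1 were at 0 in 3 and 6 libraries. Total counts per library ran from 17418072 to 39915685. CDKN1A, a direct target of p53, was at 35.3 to 51.6 CPM in the p53 KO libraries and 247 to 501 CPM in the WT libraries, and ATF4, CHAC1 and ASNS, targets or effectors of the GCN2 pathway, were lower with GCN2iB in both genotypes. Replicate 4 of WT GCN2iB stood apart from its group, with CDKN1A at 375 CPM against 483 to 501 CPM in the other 3. The libraries numbered 4, least so that of WT GCN2iB, also read low in long transcripts: relative to the other 3 of the group, the 18 members with more exon sequence than the median of 6068 bases had a median log2 difference of -0.29 in p53 KO GCN2iB, -0.22 in p53 KO vehicle, -0.07 in WT GCN2iB and -0.27 in WT vehicle. In the 18 members with less exon sequence it was -0.02 in p53 KO GCN2iB, -0.11 in p53 KO vehicle, -0.02 in WT GCN2iB and -0.07 in WT vehicle. Each count of called members below was therefore also taken without the libraries numbered 4.

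The promoters of 4 genes that rose with GCN2iB in both genotypes are shown because each holds a CCAAT box, the binding word of NF-Y that is common in promoters of genes active in dividing cells. Each sequence is the 250 bases before the transcription start in RefSeq (GRCh38.p14), 5′ to 3′ along the gene. Capitals mark CCAAT, the CHR words TTTGAA and TTCGAA, and the E2F words TTTCCCGC, TTTCGCGC, TTTGCCGC and TTTGGCGC, each searched on both strands. No capital run here belongs to 2 motifs. CHEK2 lies at chr22:28741821-28742070, UBE2T at chr1:202341937-202342186, BRIP1 at chr17:61863529-61863778 and FANCA at chr16:89816648-89816897, all on the minus strand.
CHEK2: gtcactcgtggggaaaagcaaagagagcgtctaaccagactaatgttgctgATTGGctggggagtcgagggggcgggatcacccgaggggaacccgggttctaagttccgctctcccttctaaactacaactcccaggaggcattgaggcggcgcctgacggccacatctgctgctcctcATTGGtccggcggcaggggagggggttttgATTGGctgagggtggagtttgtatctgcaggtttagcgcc
UBE2T: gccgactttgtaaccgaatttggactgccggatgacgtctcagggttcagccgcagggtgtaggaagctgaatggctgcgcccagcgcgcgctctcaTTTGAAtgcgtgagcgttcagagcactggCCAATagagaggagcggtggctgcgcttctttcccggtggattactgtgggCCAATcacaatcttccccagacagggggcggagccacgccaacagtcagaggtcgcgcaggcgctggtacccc
BRIP1: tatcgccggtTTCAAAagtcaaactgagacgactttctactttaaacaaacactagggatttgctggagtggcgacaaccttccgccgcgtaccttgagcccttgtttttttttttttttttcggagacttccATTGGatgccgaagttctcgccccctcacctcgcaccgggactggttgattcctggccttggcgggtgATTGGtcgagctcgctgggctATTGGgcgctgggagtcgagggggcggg
FANCA: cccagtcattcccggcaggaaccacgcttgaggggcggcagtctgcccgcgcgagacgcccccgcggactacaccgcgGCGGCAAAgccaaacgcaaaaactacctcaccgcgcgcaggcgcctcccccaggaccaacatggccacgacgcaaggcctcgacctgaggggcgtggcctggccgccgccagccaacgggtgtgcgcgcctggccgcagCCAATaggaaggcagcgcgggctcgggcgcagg

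A promoter was found in RefSeq for 33 of the 37 genes. In the window that also includes the 50 bases after the start, a CCAAT box was present in 16 of 33 members (48.5%), against 35.7% of 27305 promoters of that length. E2F words were present in 5 members (15.2%), against 3.33% of all promoters. CHR words were present in 4 members (12.1%), against 16.6% of all promoters. Of the 9 members that rose with GCN2iB in both genotypes 8 had a promoter, and 4 of the 8 held a CCAAT box. Among the 13 members called in no comparison 12 had a promoter, and 5 of the 12 held a CCAAT box (PALB2, MRE11, BLM, ATM and FANCM). These matches describe letters in a window, and binding was not measured.

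**Figure D1:**
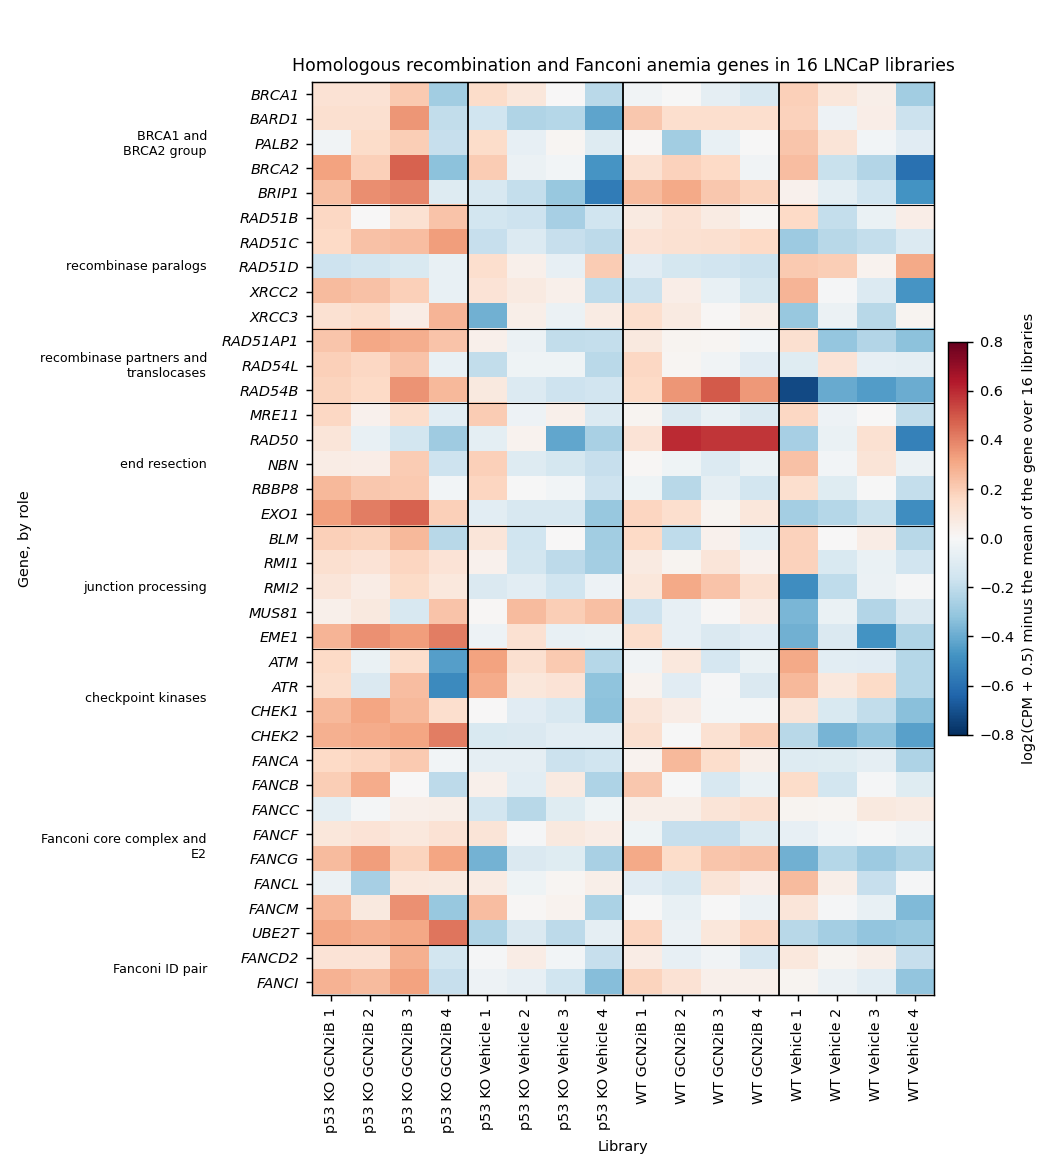
Level of the 37 genes in the 16 libraries, as log2(CPM + 0.5) minus the mean of the gene over all libraries. Rows are genes in order of role, columns are libraries by group, red is above the mean of the gene and blue below it. The block of p53 KO GCN2iB libraries 1 to 3 is mostly red, and library 4 of p53 KO GCN2iB, p53 KO vehicle and WT vehicle is blue in long genes such as BRCA2, ATM and ATR.

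Per kilobase of exon sequence the members covered a wide range of levels in WT vehicle cells. UBE2T was the most abundant at 44.6 CPM per kilobase, followed by BARD1 at 17.4, RMI1 at 17.2, RAD51AP1 at 15.5 and FANCI at 15.1 CPM per kilobase. RAD50 was the lowest at 0.653 CPM per kilobase, below RAD51B at 1.03 and RAD54B at 1.17 CPM per kilobase. RAD50 encodes the ATPase of the complex with MRE11 and NBN, which were at 6.06 and 14.1 CPM per kilobase. In the annotation 79.7% of the RAD50 exon sequence is shared with the readthrough gene AC116366.3 on the same strand, which had 0 counts. How reads in shared sequence were assigned is not given in the sources used here, so the level of RAD50 is uncertain.

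With GCN2iB the recombination and Fanconi genes rose more often than they fell in both genotypes. In p53 KO cells 16 of 37 members were higher with GCN2iB than with vehicle and 0 were lower, by edgeR's quasi-likelihood test with Benjamini-Hochberg adjustment over 18549 genes at an adjusted p under 0.05. Of all genes tested there, 11.4% were called higher and 8.71% lower. In WT cells 11 of 37 members were higher with GCN2iB and 1 was lower, where 11.6% of all genes were called higher and 13.6% lower. The median log2 change of the 37 genes was 0.20 in p53 KO cells and 0.09 in WT cells, beside medians over all tested genes of -0.01 and -0.03. The sum over the 37 genes was 1715 ± 106 CPM in p53 KO GCN2iB and 1451 ± 78.7 CPM in p53 KO vehicle, and 1594 ± 30.6 CPM in WT GCN2iB and 1449 ± 93 CPM in WT vehicle (SD, n = 4 each).

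Changes were small: the largest called rise was 1.82-fold, in RAD54B of WT cells. Behind the count of 0 lower in p53 KO cells, 1 member had an unadjusted p under 0.05, and DESeq2 called 1 member lower (RAD51D) where limma voom called 0. Under library totals as the only scaling, 11 members were higher and 1 lower in p53 KO cells, and the share of higher calls among all called genes was 34.4% in place of 56.7%. Without the libraries numbered 4 the counts were 15 higher and 0 lower in p53 KO cells, and 13 higher and 1 lower in WT cells. In all 9 members rose in both genotypes: BRIP1, RAD51C, RAD54B, EXO1, EME1, CHEK2, FANCA, FANCG and UBE2T. They make up 81.8% of the members called higher in WT cells and 56.2% of those called higher in p53 KO cells, and the GCN2iB comparisons of the genotypes share no library. Among all tested genes 1323 (7.13%) were called higher in both, which is 61.4% of those called higher in WT cells and 62.4% of those called higher in p53 KO cells.

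Proliferation markers moved in the same comparisons. Of 15 such genes, 11 rose and 0 fell with GCN2iB in p53 KO cells, and 9 rose and 0 fell in WT cells. Their summed level was 2194 to 2381 CPM in p53 KO GCN2iB and 1652 to 1803 CPM in p53 KO vehicle, and 2263 to 2331 CPM in WT GCN2iB and 1750 to 1829 CPM in WT vehicle. The groups of a genotype did not overlap in this sum, and no marker of the list was at 0. CCNA2, a cyclin of S phase and G2, rose by 0.73 in p53 KO cells and by 0.64 in WT cells on the log2 scale. Luminal prostate markers moved the other way: of 10, 5 fell and 0 rose with GCN2iB in p53 KO cells, and 7 fell and 0 rose in WT cells. Their summed level was 5880 to 6269 CPM in p53 KO GCN2iB and 6689 to 6805 CPM in p53 KO vehicle, and 6281 to 6488 CPM in WT GCN2iB and 7213 to 7417 CPM in WT vehicle, without overlap. The summed stromal and immune markers were low, at 19.4 to 23.5 CPM in p53 KO GCN2iB and 24.9 to 27.7 CPM in p53 KO vehicle, and 20.3 to 22.8 CPM in WT GCN2iB and 23.7 to 28.1 CPM in WT vehicle. The part of these marker changes in those of the repair genes was not tested. In bulk RNA, a larger share of cells in S phase and more RNA of these genes per cell cannot be told apart.

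**Figure D2:**
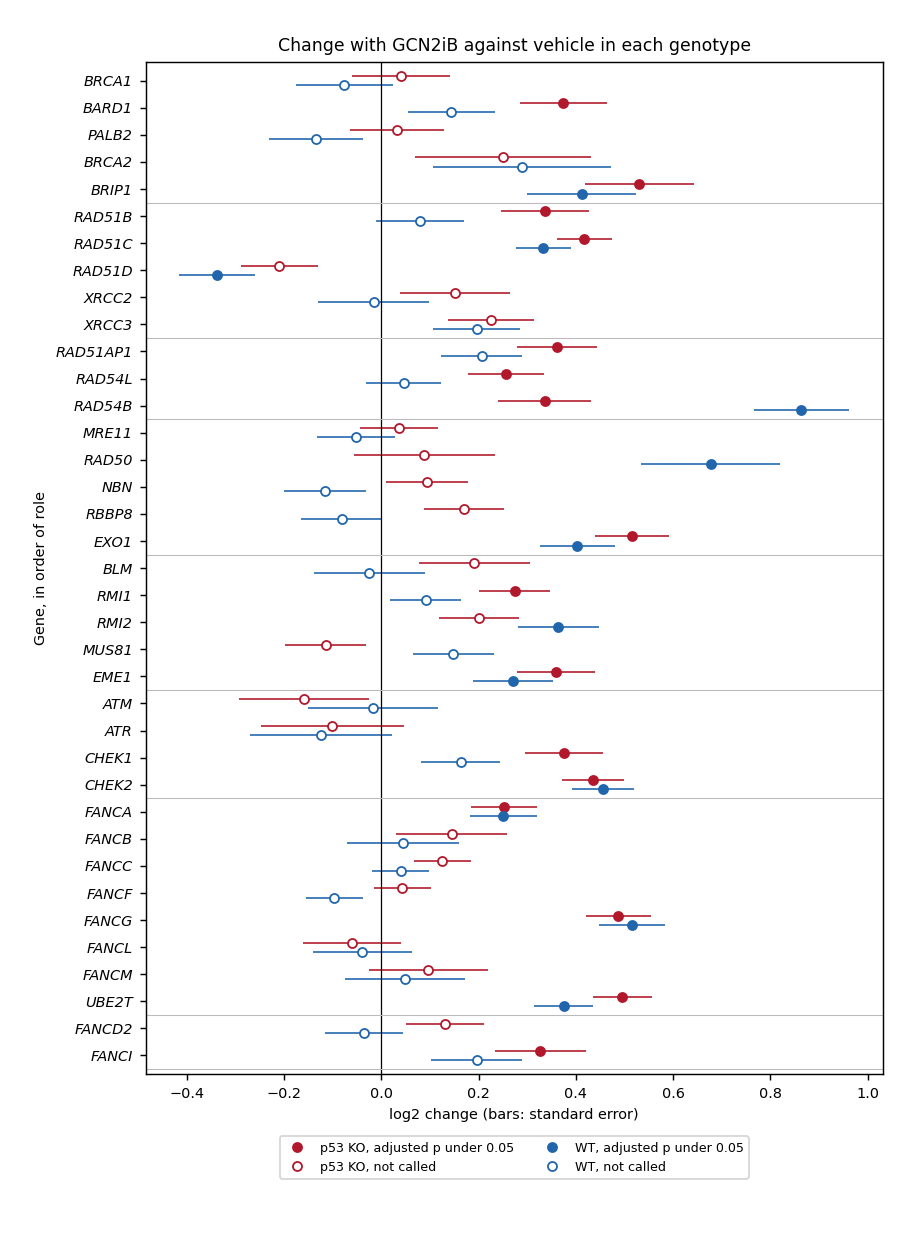
log2 change of each gene with GCN2iB against vehicle (x axis), in p53 KO cells (red, upper point of a pair) and WT cells (blue, lower point), with bars of 1 standard error. Filled points have an adjusted p under 0.05: 16 in p53 KO cells, all to the right of 0, and 12 in WT cells, of which RAD51D at -0.34 is the exception on the left.

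Among the tumour suppressors that load the recombinase, BRCA1 and BRCA2 themselves were not called. BRCA1, the ubiquitin ligase subunit that acts early in the choice of recombination, had 78.8, 78.7, 83.9 and 59.8 CPM in p53 KO GCN2iB libraries and 80.2, 77.2, 72.6 and 62.4 CPM in p53 KO vehicle libraries. In WT cells BRCA1 had 71.3, 72.5, 69.0 and 66.4 CPM with GCN2iB and 82.8, 77.2, 74.9 and 59.9 CPM with vehicle. The groups overlapped, with the lowest value of each group in library 4, and the log2 changes were 0.04 ± 0.10 in p53 KO cells and -0.08 ± 0.10 in WT cells (SE), with adjusted p of 0.823 and 0.629.

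BRCA2, which carries the recombinase to resected DNA, had 29.7, 27.2, 33.1 and 18.8 CPM in p53 KO GCN2iB libraries and 27.4, 23.0, 23.4 and 17 CPM in p53 KO vehicle libraries. WT cells had 25.8, 27.0, 26.5 and 23.3 CPM with GCN2iB and 28.3, 20.9, 20.1 and 15.5 CPM with vehicle. BRCA2 was low in library 4 of every group, and its groups overlapped in both genotypes. Its log2 change was 0.25 ± 0.18 in p53 KO cells (adjusted p = 0.369) and 0.29 ± 0.18 in WT cells (adjusted p = 0.276). BRCA2 passed the threshold in both genotypes once smooth trends on GC content and transcript length were removed, and with replicate number as a block. Its adjusted p over all alternatives ran from 0.00412 to 0.646 in p53 KO cells and from 0.00136 to 0.513 in WT cells. PALB2, which links BRCA1 to BRCA2, had log2 changes of 0.03 in p53 KO cells and -0.13 in WT cells and was not called.

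BRIP1, a helicase that binds BRCA1 and is itself a Fanconi gene, rose in both genotypes. It had 27.8, 30.5, 30.9 and 21.8 CPM in p53 KO GCN2iB libraries and 21.4, 20.5, 18.9 and 15.7 CPM in p53 KO vehicle libraries. In WT cells BRIP1 had 28, 29, 27.2 and 26.6 CPM with GCN2iB and 24.0, 22.1, 20.9 and 16.7 CPM with vehicle. Every GCN2iB library was above every vehicle library of its genotype, by a log2 change of 0.53 ± 0.11 in p53 KO cells (adjusted p = 0.00173) and 0.41 ± 0.11 in WT cells (adjusted p = 0.00958).

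BARD1, the partner of BRCA1 in its ubiquitin ligase, rose in p53 KO cells. It had 114, 114, 133 and 91.1 CPM in p53 KO GCN2iB libraries and 93.5, 88.6, 89.0 and 77.8 CPM in p53 KO vehicle libraries. Library 4 of p53 KO GCN2iB fell within the vehicle range. The log2 change was 0.37 ± 0.09 (adjusted p = 0.00455), and in WT cells BARD1 had 121, 115, 115 and 115 CPM with GCN2iB and 119, 101, 109 and 92.7 CPM with vehicle, a log2 change of 0.14 that was not called.

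**Figure D3:**
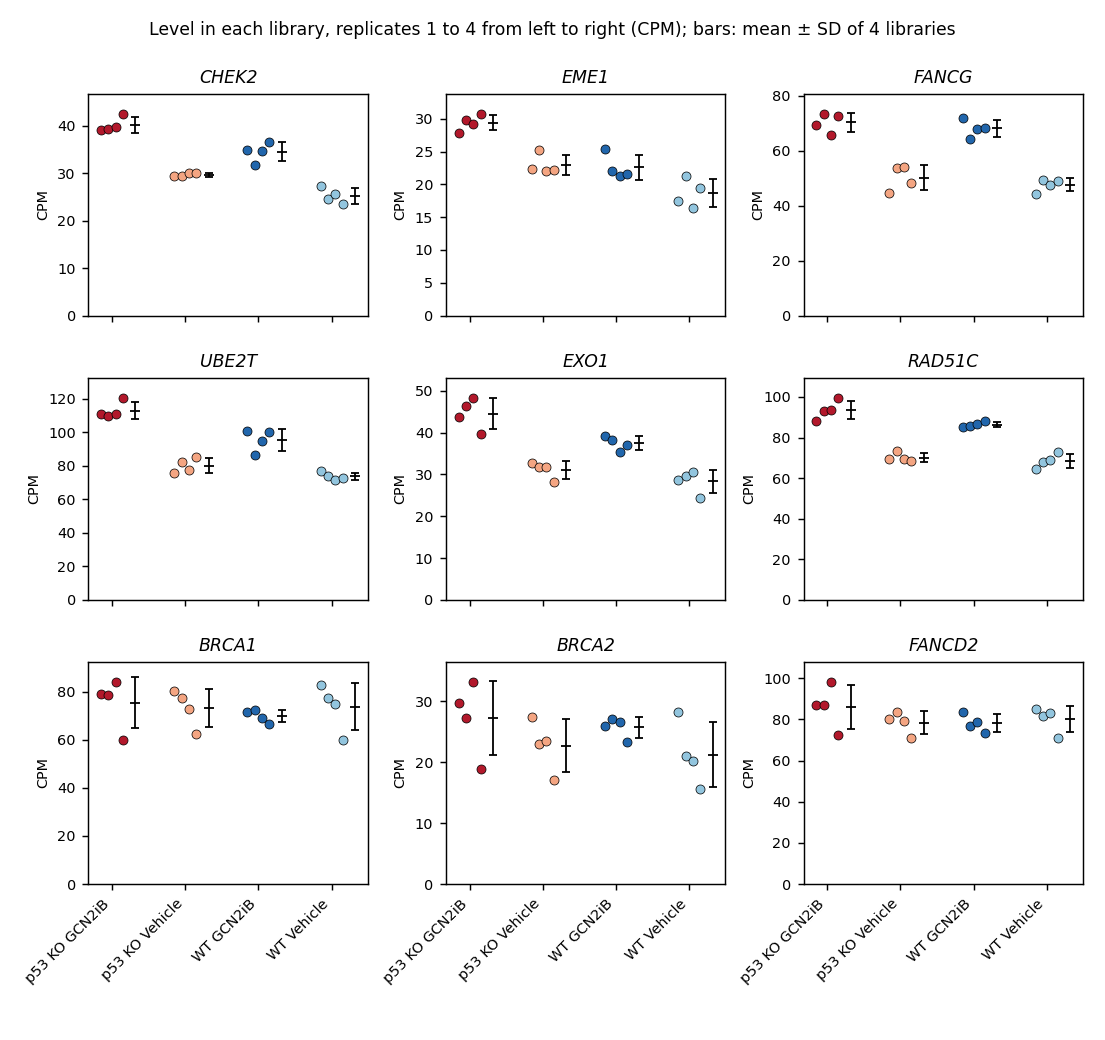
CPM in each library for 9 members, from left to right p53 KO GCN2iB, p53 KO vehicle, WT GCN2iB and WT vehicle, with libraries 1 to 4 in order and the mean ± SD of 4 libraries beside them. CHEK2, FANCG, UBE2T, EXO1 and RAD51C separate GCN2iB from vehicle in both genotypes, and in BRCA1, BRCA2 and FANCD2 the groups overlap and library 4 is the lowest of most groups.

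The paralogs of the recombinase, which form the BCDX2 and CX3 complexes that steady its filament, moved in different directions. RAD51C, the member shared by both complexes, rose by 0.42 ± 0.06 in p53 KO cells and by 0.33 ± 0.06 in WT cells on the log2 scale (adjusted p = 1.55e-05 and 0.000168). It averaged 93.6 ± 4.57 CPM in p53 KO GCN2iB and 70.1 ± 2.12 CPM in p53 KO vehicle, and 86.4 ± 1.32 CPM in WT GCN2iB and 68.5 ± 3.58 CPM in WT vehicle (SD, n = 4 each), with no overlap in either genotype. RAD51B rose by 0.34 in p53 KO cells (adjusted p = 0.0106) and had a change of 0.08 in WT cells that was not called.

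RAD51D, the paralog that bridges RAD51C and XRCC2, was the only member called lower with GCN2iB, in WT cells. It had 12.6, 12.1, 12 and 11.9 CPM in WT GCN2iB libraries and 15.6, 15.4, 13.7 and 16.7 CPM in WT vehicle libraries, which did not overlap. In p53 KO cells it had 11.9, 12.1, 12.3 and 12.9 CPM with GCN2iB and 14.8, 13.8, 12.8 and 15.5 CPM with vehicle, where library 4 of GCN2iB lay just above the lowest vehicle library. The log2 change was -0.34 ± 0.08 in WT cells (adjusted p = 0.00286) and -0.21 ± 0.08 in p53 KO cells (adjusted p = 0.0624). In p53 KO cells the adjusted p ran from 0.0123 to 0.498 over the alternatives and was under the threshold without p53 KO vehicle replicate 3. XRCC2 and XRCC3 were not called in either genotype, with log2 changes of 0.15 and 0.23 in p53 KO cells and -0.02 and 0.20 in WT cells. XRCC3 passed the threshold with replicate number as a block in both genotypes (adjusted p = 0.0144 in p53 KO cells and 0.0282 in WT cells), without p53 KO vehicle replicate 4 in p53 KO cells (adjusted p = 0.0415) and without WT vehicle replicate 4 in WT cells (adjusted p = 0.0414). Over the alternatives its adjusted p ran from 0.00137 to 0.281 in p53 KO cells and from 0.0225 to 0.244 in WT cells. The exons of XRCC3 share 76.7% of their sequence with KLC1 on the opposite strand, so XRCC3 counts are uncertain without the strand setting. With GCN2iB KLC1 had log2 changes of 0.23 in p53 KO cells (adjusted p = 0.0727) and 0.59 in WT cells (adjusted p = 5.5e-05), and between p53 KO GCN2iB and WT vehicle, where XRCC3 was called, KLC1 was higher by 0.27 (adjusted p = 0.0229).

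All 3 partners and translocases of the recombinase rose in p53 KO cells, and 1 of the 3 rose in WT cells. RAD54B, a DNA translocase of meiosis and mitotic repair, had 10.2, 10.0, 11.6 and 10.7 CPM in p53 KO GCN2iB libraries and 9.41, 8.23, 7.89 and 7.94 CPM in p53 KO vehicle libraries. WT cells had 10.0, 11.5, 12.7 and 11.5 CPM with GCN2iB and 5.21, 6.63, 6.41 and 6.66 CPM with vehicle. The groups did not overlap in either genotype. The WT change, 0.86 ± 0.10 on the log2 scale or 1.82-fold (adjusted p = 1.27e-06), was the largest of any member with GCN2iB, and the p53 KO change was 0.34 ± 0.10 (adjusted p = 0.0149).

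The p53 KO call of RAD54B was lost under library totals as the only scaling. It was also lost without p53 KO vehicle replicate 3 (adjusted p = 0.0527) and without all libraries numbered 4 (adjusted p = 0.0614). Over the alternatives its adjusted p ran from 0.00602 to 0.0614. RAD54B shares 59.1% of its exon sequence with FSBP on the same strand, and FSBP had log2 changes of 0.03 in p53 KO cells and 0.02 in WT cells. RAD51AP1, which helps the recombinase pair DNA, rose by 0.36 in p53 KO cells (adjusted p = 0.00309) and had a change of 0.21 in WT cells (adjusted p = 0.0722). That WT change passed the threshold in 9 of 19 alternatives, among them DESeq2 (adjusted p = 0.0364), limma voom (adjusted p = 0.0457) and the fit without WT vehicle replicate 1 (adjusted p = 0.0014), within a range of 0.000839 to 0.161. RAD54L, the main translocase of somatic repair, rose by 0.26 in p53 KO cells (adjusted p = 0.0213) and had a change of 0.05 in WT cells. RAD54L shares 25.1% of its exon sequence with LRRC41 on the opposite strand. With GCN2iB LRRC41 had log2 changes of -0.13 in p53 KO cells (edgeR adjusted p = 0.119) and -0.16 in WT cells (edgeR adjusted p = 0.0424). The p53 KO call of RAD54L was lost under library totals as the only scaling. It was also lost without any of p53 KO GCN2iB replicates 1, 2 and 3 or p53 KO vehicle replicates 1 and 4. Its adjusted p over the alternatives ran from 0.0031 to 0.111.

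Among the end resection genes EXO1 rose in both genotypes, RAD50 in WT cells, and MRE11, NBN and RBBP8 in neither. EXO1, the exonuclease of long resection, had 43.8, 46.3, 48.3 and 39.7 CPM in p53 KO GCN2iB libraries and 32.8, 31.7, 31.8 and 28.1 CPM in p53 KO vehicle libraries. WT cells had 39.1, 38.2, 35.3 and 37.1 CPM with GCN2iB and 28.7, 29.5, 30.6 and 24.4 CPM with vehicle. The groups were separate in both genotypes, by a log2 change of 0.52 ± 0.08 in p53 KO cells (adjusted p = 5.04e-05) and 0.40 ± 0.08 in WT cells (adjusted p = 0.00058).

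RAD50 had 7.82, 11.1, 10.9 and 10.9 CPM in WT GCN2iB libraries and 5.92, 6.92, 7.87 and 4.81 CPM in WT vehicle libraries. In p53 KO cells it had 7.73, 6.90, 6.45 and 5.82 CPM with GCN2iB and 6.81, 7.35, 5.29 and 5.95 CPM with vehicle. WT GCN2iB libraries 2, 3 and 4 were above all others, and library 1 lay within the WT vehicle range. The log2 change was 0.68 ± 0.14 in WT cells (adjusted p = 0.00129) and 0.09 ± 0.15 in p53 KO cells (adjusted p = 0.72), on counts of 112 to 421 per library and with the shared annotation given above. MRE11, the nuclease that starts resection, had changes of 0.04 in p53 KO cells and -0.05 in WT cells, and its partner NBN had 0.09 in p53 KO cells and -0.12 in WT cells. RBBP8, the cofactor also called CtIP, had 0.17 in p53 KO cells and -0.08 in WT cells.

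Among the genes that take joined molecules apart, EME1 rose in both genotypes. EME1, the partner of the nuclease MUS81, had 27.9, 29.8, 29.2 and 30.8 CPM in p53 KO GCN2iB libraries and 22.4, 25.2, 22.1 and 22.2 CPM in p53 KO vehicle libraries. WT cells had 25.4, 22.0, 21.3 and 21.6 CPM with GCN2iB and 17.5, 21.3, 16.4 and 19.5 CPM with vehicle. The p53 KO groups were well apart, whereas the lowest WT GCN2iB library stood just above the highest WT vehicle library. The log2 change was 0.36 ± 0.08 in p53 KO cells (adjusted p = 0.00261) and 0.27 ± 0.08 in WT cells (adjusted p = 0.018). The WT call was lost without WT GCN2iB replicate 1 (adjusted p = 0.0553) or WT vehicle replicate 3 (adjusted p = 0.0644), and over the alternatives it ran from 0.00361 to 0.0644.

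MUS81 itself was not called with GCN2iB, with log2 changes of -0.11 in p53 KO cells and 0.15 in WT cells. RMI1 and RMI2 are scaffold subunits of the dissolvasome that BLM, a helicase, drives. RMI1 rose by 0.27 in p53 KO cells (adjusted p = 0.00989) and had a change of 0.09 in WT cells. Its p53 KO call was lost under library totals as the only scaling (adjusted p = 0.0602), in a range of 7.65e-06 to 0.0602 over the alternatives. RMI2 rose by 0.36 in WT cells (adjusted p = 0.0025) and had a change of 0.20 in p53 KO cells (adjusted p = 0.0912). BLM had changes of 0.19 in p53 KO cells and -0.02 in WT cells and was not called.

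Of the checkpoint kinases, the effectors CHEK1 and CHEK2 were called and the apical kinases ATM and ATR were not. CHEK2, which ATM activates, had 39.0, 39.3, 39.8 and 42.5 CPM in p53 KO GCN2iB libraries and 29.3, 29.4, 30.1 and 30.1 CPM in p53 KO vehicle libraries. In WT cells it had 34.9, 31.8, 34.7 and 36.6 CPM with GCN2iB and 27.3, 24.6, 25.6 and 23.5 CPM with vehicle. All 8 GCN2iB libraries were above all 8 vehicle libraries. The log2 change of CHEK2 was 0.43 ± 0.06 in p53 KO cells (adjusted p = 3.7e-05) and 0.46 ± 0.06 in WT cells (adjusted p = 1.98e-05), and both calls held in every alternative that was run.

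CHEK1, which ATR activates when replication stalls, had 67.6, 70.1, 67.4 and 61.8 CPM in p53 KO GCN2iB libraries and 56.4, 52.9, 51.5 and 44.8 CPM in p53 KO vehicle libraries. In WT cells it had 60.2, 58.8, 55.7 and 55.7 CPM with GCN2iB and 60.6, 51.8, 49.2 and 44.6 CPM with vehicle. CHEK1 separated the groups in p53 KO cells and overlapped in WT cells, where vehicle library 1 was the highest. It rose by 0.38 ± 0.08 in p53 KO cells (adjusted p = 0.00193), and its WT change of 0.16 ± 0.08 was not called (adjusted p = 0.149). Alternatives in which the WT change passed the threshold include the fit without WT vehicle replicate 1 and that with replicate number as a block (adjusted p = 0.0204). The adjusted p of CHEK1 in WT cells ran from 0.000371 to 0.326 over the alternatives. ATM had log2 changes of -0.16 in p53 KO cells and -0.02 in WT cells, and ATR had -0.10 in p53 KO cells and -0.12 in WT cells.

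Within the Fanconi core complex, FANCA and FANCG and the conjugating enzyme UBE2T rose in both genotypes and the other 5 members in neither. FANCG, a scaffold subunit that binds FANCA, had 69.4, 73.5, 65.9 and 72.6 CPM in p53 KO GCN2iB libraries and 44.7, 53.6, 54.3 and 48.5 CPM in p53 KO vehicle libraries. In WT cells it had 71.9, 64.4, 67.8 and 68.4 CPM with GCN2iB and 44.4, 49.5, 47.5 and 49.2 CPM with vehicle. The gap between the groups was wide in both genotypes, with log2 changes of 0.49 ± 0.07 in p53 KO cells (adjusted p = 1.99e-05) and 0.52 ± 0.07 in WT cells (adjusted p = 8.32e-06).

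UBE2T had 111, 110, 111 and 120 CPM in p53 KO GCN2iB libraries and 75.5, 82.5, 77.3 and 85.1 CPM in p53 KO vehicle libraries. In WT cells it had 101, 86.5, 94.9 and 100 CPM with GCN2iB and 76.6, 74.0, 71.8 and 72.6 CPM with vehicle. Again no vehicle library reached the GCN2iB range of its genotype. UBE2T rose by 0.50 ± 0.06 in p53 KO cells (adjusted p = 5.32e-06) and by 0.37 ± 0.06 in WT cells (adjusted p = 0.000119). FANCA, a subunit of the core complex, rose by 0.25 ± 0.07 in each genotype (adjusted p = 0.0108 in p53 KO cells and 0.00927 in WT cells). In p53 KO cells the FANCA call was lost under library totals as the only scaling (adjusted p = 0.0802), in a range of 0.000244 to 0.0802 over the alternatives. FANCA shares 23.6% of its exon sequence with ZNF276 on the opposite strand, which was not called in either genotype.

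FANCB, FANCC, FANCF, FANCL and FANCM, among them the ubiquitin ligase FANCL and the translocase FANCM, had log2 changes of 0.14, 0.13, 0.04, -0.06 and 0.10 in p53 KO cells and 0.04, 0.04, -0.10, -0.04 and 0.05 in WT cells. FANCD2, the subunit whose ubiquitin marks pathway activity, had 86.9, 86.8, 98.1 and 72.4 CPM in p53 KO GCN2iB libraries and 80.0, 83.7, 79.3 and 70.8 CPM in p53 KO vehicle libraries. In WT cells it had 83.7, 76.8, 78.9 and 73.3 CPM with GCN2iB and 85.2, 81.7, 83 and 70.8 CPM with vehicle. FANCD2 overlapped between treatments in both genotypes, with log2 changes of 0.13 ± 0.08 in p53 KO cells and -0.04 ± 0.08 in WT cells (adjusted p = 0.27 and 0.791). Its partner FANCI rose by 0.33 ± 0.09 in p53 KO cells (adjusted p = 0.0151) and had a change of 0.20 in WT cells (adjusted p = 0.13), which passed the threshold in 6 of 19 alternatives (0.00144 to 0.283). The p53 KO call of FANCI was lost under library totals as the only scaling. It was also lost without p53 KO GCN2iB replicate 1 or 3 (adjusted p = 0.0502 and 0.0529) or p53 KO vehicle replicate 4 (adjusted p = 0.0524). Its adjusted p ran from 7.18e-05 to 0.0733 over the alternatives.

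No member passed the test of the difference between the GCN2iB responses, p53 KO response minus WT response, in edgeR, DESeq2 or limma voom. Of all 18549 genes 1 passed it in edgeR (0.00539%) and 1 in limma voom, whereas DESeq2 called 19 higher and 19 lower of 16389. At an unadjusted p under 0.05, edgeR gave 1 member with a higher and 3 with a lower p53 KO response, and DESeq2 and limma voom each gave 0 and 3. The smallest adjusted p was that of RAD54B, whose difference was -0.53 ± 0.14 on the log2 scale (adjusted p = 0.302), followed by RAD50 with -0.59 ± 0.20 (adjusted p = 0.375). The median difference over the 37 genes was 0.11, beside 0.02 over all tested genes. The 7 members called higher in p53 KO cells alone, and RAD50, RMI2 and RAD51D, called in WT cells alone, are therefore not shown to respond differently in the genotypes.

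**Figure D4:**
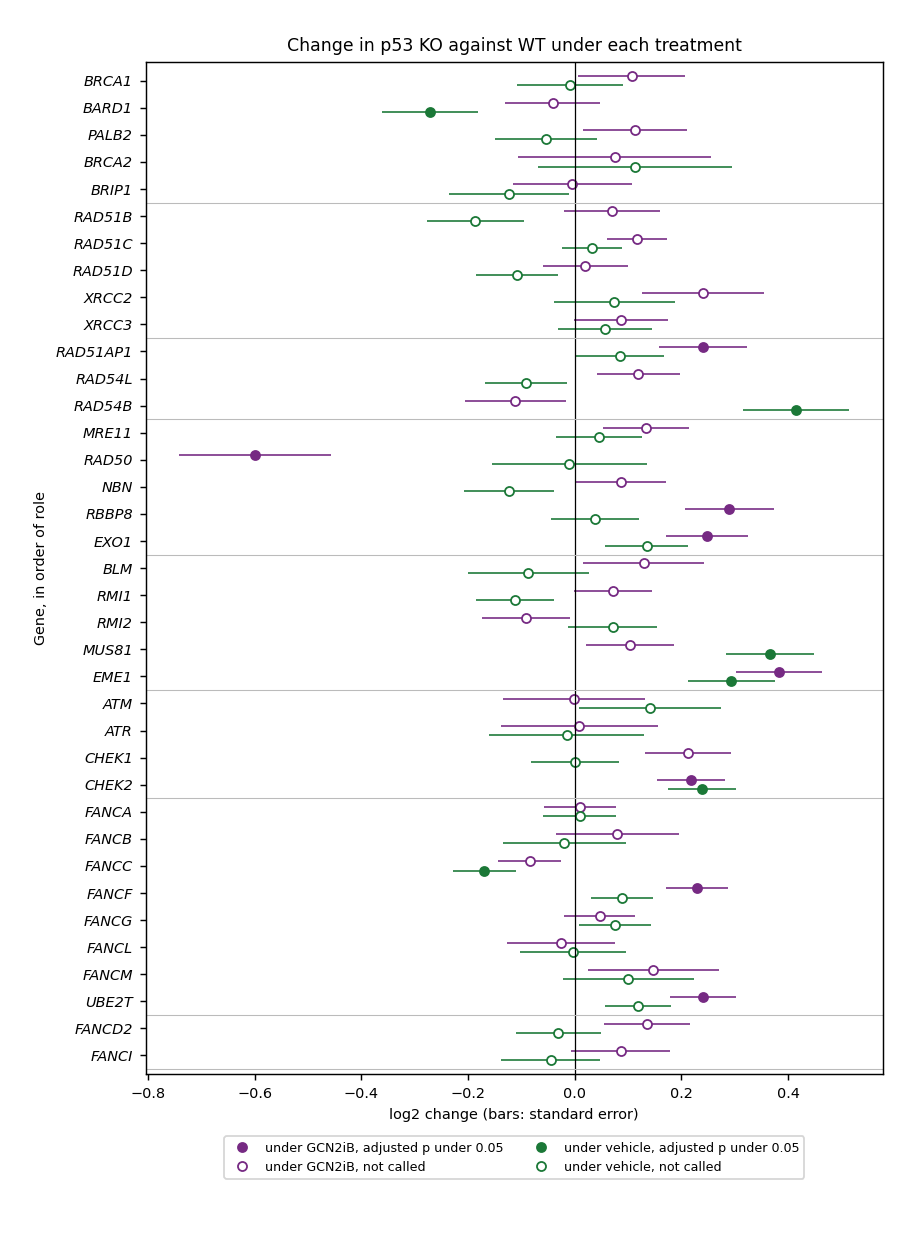
log2 change of each gene in p53 KO cells against WT cells (x axis), under GCN2iB (purple, upper point of a pair) and under vehicle (green, lower point), with bars of 1 standard error. Filled points have an adjusted p under 0.05: 8 under GCN2iB, with RAD50 at -0.60 the only one to the left, and 6 under vehicle, with BARD1 and FANCC to the left.

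Between genotypes fewer members differed: 16.2% were called in either direction under vehicle and 21.6% under GCN2iB, beside 21.7% and 23.9% of all tested genes. By direction, 10.8% of members were called higher under vehicle, near the 9.63% of all genes. Under GCN2iB 18.9% of members were called higher, beside 12.7% of all genes. Lower calls were few among the members under either treatment. With vehicle, 4 of 37 members stood higher in p53 KO cells and 2 stood lower, where 21.7% of all tested genes were called, 9.63% higher and 12.1% lower. The median log2 change of the members was 0.01 and that of all genes 0.01. Under GCN2iB 7 members were higher in p53 KO cells and 1 was lower, where 12.7% of all genes were called higher and 11.2% lower, with a median of 0.09 for the members and 0.03 for all genes. Without the libraries numbered 4 they were 4 and 2 with vehicle, and 9 and 1 with GCN2iB. Under library totals as the only scaling 60.7% of all calls under vehicle were higher, in place of 44.4%, and 0 members were called lower there. With vehicle, p53 KO cells had 2 of the 15 proliferation markers called higher and 5 called lower, and with GCN2iB 1 and 2. The summed basal epithelial markers were low throughout but higher in p53 KO cells, at 6.16 to 7.01 CPM with GCN2iB and 6.97 to 7.87 CPM with vehicle, against 2.35 to 3.98 CPM and 2.97 to 3.36 CPM in WT cells under the same treatments, and their part in these results was not tested.

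Under vehicle the genes called higher in p53 KO cells were RAD54B, MUS81, EME1 and CHEK2. RAD54B differed most, by 0.42 ± 0.10 on the log2 scale (adjusted p = 0.00361), from the vehicle values given above. FSBP, which shares 59.1% of the RAD54B exon sequence on the same strand, was also higher there, by 0.29 (edgeR adjusted p = 0.0246). How reads were divided between RAD54B and FSBP is not known. MUS81, the nuclease subunit that cuts forks and joined molecules, had 38.1, 45.3, 43.6 and 45 CPM in p53 KO vehicle libraries and 29.3, 36.6, 32.1 and 35.0 CPM in WT vehicle libraries. The groups did not overlap, and the log2 change was 0.37 ± 0.08 (adjusted p = 0.0023). MUS81 shares 13.9% of its exon sequence with CFL1 on the opposite strand, whose log2 change was -0.03. With GCN2iB MUS81 had 39.0, 40.0, 34.7 and 44.5 CPM in p53 KO libraries and 33.7, 36.2, 38.1 and 39.5 CPM in WT libraries, a change of 0.10 that was not called.

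EME1, the partner of MUS81, was higher in p53 KO cells by 0.29 ± 0.08 under vehicle (adjusted p = 0.0112) and by 0.38 ± 0.08 under GCN2iB (adjusted p = 0.00122). The vehicle call was lost without WT vehicle replicate 3 (adjusted p = 0.0676) or p53 KO vehicle replicate 2 (adjusted p = 0.0566), in a range of 0.00116 to 0.0676, and the GCN2iB call held in every alternative that was run. LRRC59, which overlaps 16.4% of EME1 on the opposite strand, was also higher in p53 KO cells, by 0.17 under vehicle and 0.18 under GCN2iB. CHEK2 was higher in p53 KO cells by 0.24 ± 0.06 under vehicle (adjusted p = 0.00893) and by 0.22 ± 0.06 under GCN2iB (adjusted p = 0.014). HSCB, which overlaps 6.7% of CHEK2 on the opposite strand, was also higher in p53 KO cells under GCN2iB, by 0.43 (edgeR adjusted p = 0.00841). Under vehicle its change of 0.20 was not called (edgeR adjusted p = 0.247). The GCN2iB call of CHEK2 was lost without WT GCN2iB replicate 2 (adjusted p = 0.098) or replicate 3 (adjusted p = 0.0533), in a range of 0.00504 to 0.111.

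BARD1 and FANCC were lower in p53 KO cells under vehicle, and both calls were weak. BARD1 fell by 0.27 ± 0.09 on the log2 scale (adjusted p = 0.0317), with the vehicle values given above overlapping at WT library 4. Its call was lost without WT vehicle replicate 1 or 3 or p53 KO vehicle replicate 2, 3 or 4, and over the alternatives the adjusted p ran from 0.000232 to 0.122. FANCC, a core complex subunit, had 35.0, 33.2, 36.2 and 37.8 CPM in p53 KO vehicle libraries and 39.3, 39.1, 40.9 and 40.6 CPM in WT vehicle libraries. These did not overlap, but the change of -0.17 ± 0.06 (adjusted p = 0.0421) lost its call without WT vehicle replicate 2, 3 or 4 or p53 KO vehicle replicate 1, 2 or 3, and the adjusted p ran from 0.0138 to 0.187. With GCN2iB FANCC had 36.7, 38.4, 39.9 and 40.2 CPM in p53 KO libraries and 40.1, 40.0, 41.8 and 42.5 CPM in WT libraries and was not called.

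Under GCN2iB RBBP8, EXO1, RAD51AP1, FANCF and UBE2T were higher in p53 KO cells beside EME1 and CHEK2, and RAD50 was lower. RBBP8, which activates MRE11 at broken ends, had 43.1, 41.9, 41.6 and 35.3 CPM in p53 KO GCN2iB libraries and 35.1, 30.7, 34.2 and 32.4 CPM in WT GCN2iB libraries. The groups met closely, at library 4 of p53 KO and library 1 of WT, and the change was 0.29 ± 0.08 (adjusted p = 0.0129). With vehicle RBBP8 had 40.5, 35.9, 35.4 and 32 CPM in p53 KO libraries and 39.5, 33.7, 35.9 and 31.4 CPM in WT libraries, with a change of 0.04. EXO1 was higher by 0.25 ± 0.08 (adjusted p = 0.0211), RAD51AP1 by 0.24 (adjusted p = 0.0362), FANCF by 0.23 (adjusted p = 0.006) and UBE2T by 0.24 (adjusted p = 0.00573). RAD50 was lower in p53 KO cells by a log2 change of -0.60 ± 0.14 (adjusted p = 0.00335), with no overlap between the GCN2iB values given above, and this call held in every alternative that was run.

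Most of these calls were lost when 1 library was left out. That of RBBP8 was lost without WT GCN2iB replicate 2 or 4 or p53 KO GCN2iB replicate 1 or 3 (adjusted p over the alternatives 0.000371 to 0.0773), and that of EXO1 without WT GCN2iB replicate 2, 3 or 4 or p53 KO GCN2iB replicate 1, 2 or 3 (0.00257 to 0.116). RAD51AP1 lost its call without any of these GCN2iB libraries but p53 KO replicate 4 (0.00571 to 0.116). FANCF lost it without WT GCN2iB replicate 3 (0.00207 to 0.0896) and UBE2T without WT GCN2iB replicate 2 (0.000909 to 0.0629). The count of members called higher fell to 2 without WT GCN2iB replicate 2, to 3 without replicate 3 and to 4 without replicate 4 or without p53 KO GCN2iB replicate 1 or 3. Higher calls over all genes fell as well, from 2356 of 18549 in the main fit. They numbered 1509 of 18895, 1495 of 18906 and 1869 of 18808 without WT GCN2iB replicates 2, 3 and 4. Without p53 KO GCN2iB replicates 1 and 3 they numbered 1710 of 18784 and 1675 of 18897.

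With both changes together, p53 KO cells with GCN2iB against WT cells with vehicle, 15 of 37 members were higher and 1 was lower, where 18.5% of all genes were called higher and 18.5% lower. This comparison shares its libraries with the others, so its values are set beside them only. The median log2 change was 0.20, beside 0.01 over all genes, and without the libraries numbered 4 the counts were 19 higher and 1 lower. RAD54B differed most, by 0.75 ± 0.10 (adjusted p = 2.84e-06), then CHEK2 by 0.67 ± 0.06 (adjusted p = 2.38e-08) and EME1 by 0.65 ± 0.08 (adjusted p = 1.28e-06). FSBP, which shares exon sequence with RAD54B, was also higher there, by 0.31 (edgeR adjusted p = 0.00863). So was LRRC59, which overlaps EME1, by 0.26 (edgeR adjusted p = 0.000266). For CHEK2 the values given above amount to 40.2 ± 1.62 CPM in p53 KO GCN2iB and 25.2 ± 1.61 CPM in WT vehicle, with 29.7 ± 0.440 CPM in p53 KO vehicle and 34.5 ± 1.99 CPM in WT GCN2iB between them (SD, n = 4 each). RAD51D was lower by a log2 change of -0.32 ± 0.08 (adjusted p = 0.0029), a call that was lost once GC content and length trends were removed (adjusted p = 0.149), in a range of 0.00077 to 0.149.

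The other members called higher there were EXO1 (0.65), UBE2T (0.61), FANCG (0.56), RAD51C (0.45), RAD51AP1 (0.45), BRIP1 (0.41), CHEK1 (0.38), XRCC3 (0.28), FANCI (0.28), RMI2 (0.27), FANCA (0.26) and MUS81 (0.25 on the log2 scale). Of these, FANCI, MUS81, RMI2 and XRCC3 lost the call when 1 library was left out: FANCI without WT vehicle replicate 4 or p53 KO GCN2iB replicate 1, 2 or 3, MUS81 without WT vehicle replicate 1 or 3 or p53 KO GCN2iB replicate 4, RMI2 without WT vehicle replicate 1, and XRCC3 without WT vehicle replicate 1 or 3. Their adjusted p reached 0.0866, 0.0865, 0.0674 and 0.0641 at most, from as low as 0.000112, 0.000132, 0.00286 and 6.34e-06.

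Over the 5 comparisons of groups, which share libraries, 24 members were called at least once and 13 never. Each of these comparisons called 20.1% to 37% of all tested genes in either direction. The share of all genes called at least once was not computed, so this split is not read as particular to the members. The 13 were BRCA1, PALB2, BRCA2, XRCC2, MRE11, NBN, BLM, ATM, ATR, FANCB, FANCL, FANCM and FANCD2. Their median exon sequence was 7689 bases, against 4493 bases for the 9 that rose with GCN2iB in both genotypes and 6068 bases over all 37. Exon length is also the property along which the libraries numbered 4 stood apart. With trends on GC content and length removed, 23 members were called higher with GCN2iB in p53 KO cells and 18 in WT cells, in place of 16 and 11. Calls over all genes rose as well under that setting: 2783 of 17678 genes were higher in p53 KO cells and 2867 in WT cells. The main fit gave 2119 and 2153 of 18549.

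**Figure D5:**
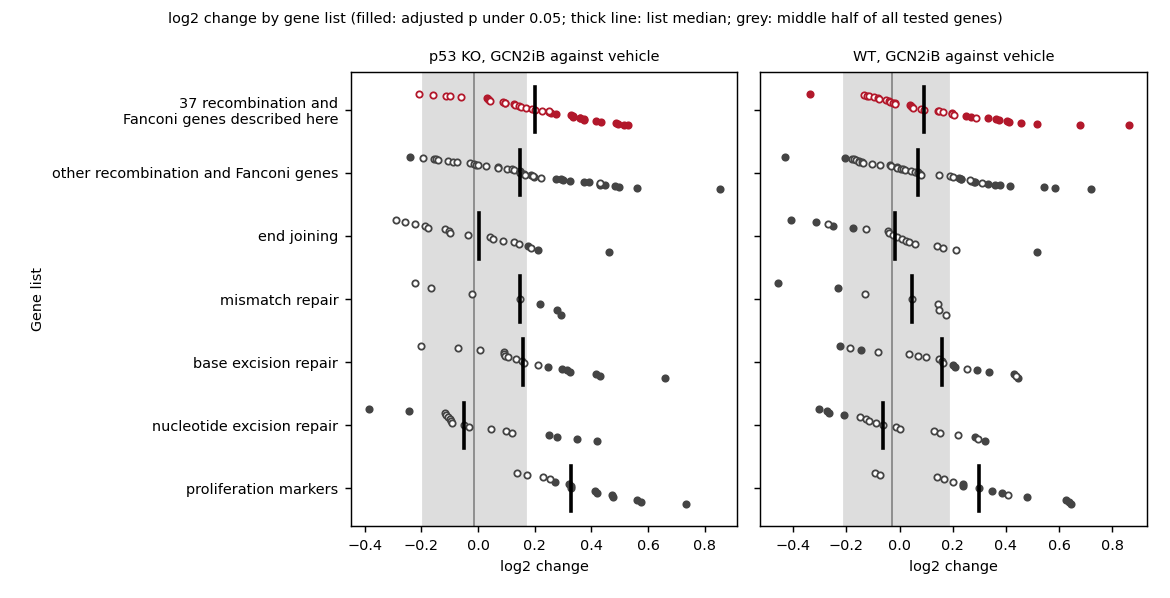
log2 change with GCN2iB against vehicle of every tested gene of 7 lists, in p53 KO cells (left) and WT cells (right); filled points have an adjusted p under 0.05, thick lines are list medians and the grey band spans the quartiles of all tested genes. The median of the 37 genes is 0.20 in p53 KO cells and 0.09 in WT cells, those of the proliferation markers are 0.33 and 0.30.

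Other recombination and Fanconi genes outside the 37 changed at similar shares. Of 42 tested, 15 rose and 1 fell with GCN2iB in p53 KO cells, and 13 rose and 2 fell in WT cells, with median log2 changes of 0.15 and 0.07. Among them SFR1, a cofactor of the recombinase, rose by 0.85 in p53 KO cells and 0.72 in WT cells. PSMC3IP, also called HOP2, which helps strand pairing, averaged 29.4 ± 1.54 CPM in p53 KO GCN2iB and 21.0 ± 1.45 CPM in p53 KO vehicle, and 30.6 ± 1.31 CPM in WT GCN2iB and 20.3 ± 0.842 CPM in WT vehicle (SD, n = 4 each).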

How the data were processed

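RNA-seq libraries of LNCaP cells, 16 in 4 groups of 4, were analysed from the read counts per gene that the authors deposited. Per the submitters' processing notes, Trim Galore, HISAT2, featureCounts, DESeq2 and GRCh38 were used; no version, annotation release or setting for strand is given in the labels. Groups were taken from the labels. Library totals were 17418072 to 39915685 counts. Counts were fitted with edgeR 4.0.16 (R 4.3.3): filterByExpr, TMM, robust quasi-likelihood fit of all 16 libraries with 1 term per group (12 residual degrees of freedom), two-sided tests, Benjamini-Hochberg adjustment over 18549 genes and a threshold of 0.05. The procedure was tested on simulated data. The fitted log2 changes are given ± SE. Alternatives were DESeq2 1.42.0, limma 3.58.1 voom, other scalings and filters, only the groups compared, a replicate block, removal of GC content and length trends, and each library left out; leaving out the libraries numbered 4 was added after seeing the data. Exon lengths came from GENCODE 29 and promoters from RefSeq GRCh38.p14. Values in every library are given for BRCA1, BRCA2, FANCD2, CHEK1 and, per comparison, the 3 members called with the greatest increase and the 3 with the greatest decrease; other genes shown this way were chosen after their values were seen. The members and lists were chosen with earlier results of these data known. Some genes are not reported here.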

Additional observations from a re-analysis of the deposited data

Results flagged for a closer look

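In 9 of 148 sets of 4 libraries (37 genes in 4 groups), the highest or lowest library lay far from the other 3, where chance alone gives about 1 set in 20. The library was the high one in 4 sets. BARD1 was at 121 CPM in WT GCN2iB replicate 1, with the others at 115. RAD54L was at 37.7 CPM in WT vehicle replicate 2, with the others at 32.6 to 33.3 CPM. EME1 was at 25.2 CPM in p53 KO vehicle replicate 2, with the others at 22.1 to 22.4 CPM. UBE2T was at 120 CPM in p53 KO GCN2iB replicate 4, with the others at 110 to 111 CPM.

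The library was the low one in 5 sets. FANCI was at 111 CPM in p53 KO GCN2iB replicate 4, with the others at 149 to 157 CPM. RAD51B was at 6.31 CPM in p53 KO vehicle replicate 3, with the others at 6.81 to 6.9 CPM. RAD50 was at 7.82 CPM in WT GCN2iB replicate 1, with the others at 10.9 to 11.1 CPM. RAD54B was at 5.21 CPM in WT vehicle replicate 1, with the others at 6.41 to 6.66 CPM. FANCA was at 40.2 CPM in WT vehicle replicate 4, with the others at 44.5 to 45.3 CPM.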

How the results depend on the processing

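No called member reversed its direction under an alternative. The median log2 change of the members between genotypes under vehicle, 0.01, turned to -0.03 without WT vehicle replicate 4 and to -0.02 without p53 KO vehicle replicate 1, and the other 5 medians kept their sign. With each library left out in turn, the members called higher with GCN2iB numbered 14 to 17 in p53 KO cells and 10 to 13 in WT cells, and those called lower 0 to 1 and 1 to 1. For p53 KO against WT cells the range was 2 to 10 higher and 1 to 1 lower under GCN2iB, and 3 to 5 higher and 0 to 1 lower under vehicle. Higher calls over all genes under GCN2iB ran from 1495 of 18906 to 2459 of 18770 in the same fits. For p53 KO GCN2iB against WT vehicle the range was 13 to 19 members higher and 1 to 1 lower, and the difference between responses stayed at 0 to 0. Removal of GC content and length trends gave 18 members higher with GCN2iB in WT cells, and 25 higher and 0 lower for p53 KO GCN2iB against WT vehicle. Over all genes, the latter comparison then had 4157 of 17678 higher and 3817 lower, in place of 3436 and 3434 of 18549. With library totals, a mean of at least 50 counts or DESeq2, 1 member was lower with GCN2iB in p53 KO cells. Between genotypes under vehicle, 0 members were lower with library totals or a mean of at least 50 counts, and 1 without a count filter or with only the groups compared, which gives no value for the difference between responses. The cause of these shifts was not tested. By the lowest count in any library, RAD54B and RAD50 were the lowest members, at 103 and 112. By the highest count RAD51B, FANCB and FANCL were lower, at 312, 367 and 401, beside 421 in RAD50 and 441 in RAD54B. What depth adds to the error of RAD50 and RAD54B was not tested.

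Same-numbered libraries did not deviate together in every pair, with correlations from -0.0642 to 0.617, over 0.1 in 12 of 24 pairs. Their median correlation was 0.0949, against -0.0377 in pairs of libraries with different numbers from different groups. Of 16 libraries 11 correlated best with their own number, a hint from the data and not the design. The labels name no pairing or batch, so the main fit has no term for replicate number. Whether same-numbered libraries share a batch was not tested. With replicate number as a block, 20 members were higher and 1 lower with GCN2iB in p53 KO cells, 16 and 1 in WT cells, 9 and 1 between genotypes under GCN2iB, 4 and 2 under vehicle, and 20 and 1 for p53 KO GCN2iB against WT vehicle. Calls over all 18549 genes rose with the block in each of these comparisons. With GCN2iB 2864 genes were higher and 2437 lower in p53 KO cells, in place of 2119 and 1615. In WT cells 2849 were higher and 3290 lower, in place of 2153 and 2524.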

Other observations

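The other repair pathways also held called genes, beside 11.4% of all tested genes called higher and 8.71% lower with GCN2iB in p53 KO cells, and 11.6% and 13.6% in WT cells. Of 18 end joining genes 3 rose and 0 fell with GCN2iB in p53 KO cells, and 1 rose and 4 fell in WT cells. PAXX, a factor that steadies Ku at broken ends, rose by 0.46 in p53 KO cells and 0.52 in WT cells on the log2 scale, and LIG4, the ligase of end joining, fell by 0.41 in WT cells (edgeR adjusted p = 0.00247). Of 18 base excision repair genes 7 rose and 0 fell in p53 KO cells, and 6 rose and 2 fell in WT cells. NEIL3, a glycosylase of replicating cells, rose by 0.66 and 0.43, and FEN1, the flap endonuclease, by 0.42 and 0.29 in p53 KO and WT cells.

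Of 7 mismatch repair genes 3 rose and 0 fell with GCN2iB in p53 KO cells, and 0 rose and 2 fell in WT cells. Of 17 nucleotide excision repair genes 4 rose and 2 fell in p53 KO cells, and 2 rose and 4 fell in WT cells. XPA, which verifies damage, fell by 0.39 in p53 KO cells and 0.30 in WT cells on the log2 scale. Differences between these lists, or between genotypes within a list, were not tested.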
